A study of Rattus norvegicus with 12 samples.

Results

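The genes described here belong to families whose proteins write, erase or read chemical marks on histones and DNA, or move nucleosomes, together with subunits and cofactors of such enzymes. They were chosen by gene symbol, in a rule that uses no measured value: every probe set assigned to exactly 1 gene of the symbol families Hdac, Sirt, Kdm, Kmt, Kat, Setd, Smarc, Chd, Dnmt, Tet, Ezh, Brd or Arid, with Kdm5c, Kdm5d and Kdm6a left out. This gave 96 genes with 179 probe sets, of 14217 genes with such a probe set on the array. Of the 96 genes, 52 had 1 probe set and 44 had several, up to 6.

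Messenger RNA was measured on 12 arrays, 1 for each male Sprague-Dawley rat aged 8 weeks. In 7 rats a middle cerebral artery was blocked and then reopened (MCAO, a surgical model of ischemic stroke), and 5 rats had a sham operation (Sham). The left hemisphere was taken 24 h after reperfusion in both groups. The labels name no genotype, drug or occluded side. The question was how brain mRNA differs between the operations, here for the machinery that regulates chromatin.

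Acetylation of histone tails, added by histone acetyltransferases and removed by histone deacetylases and some sirtuins, goes with open, transcribed chromatin. Methylation marks activation or repression depending on the residue: the MLL enzymes of the Kmt2 family mark promoters and enhancers, while Ezh1 and Ezh2, the alternative catalytic subunits of polycomb repressive complex PRC2, mark silenced genes. Remodellers of the SWI/SNF, ISWI and CHD classes use ATP to slide or evict nucleosomes, and several of them exist as paralogs that replace each other during neuronal differentiation. Ezh2 is known from dividing and immature cells and Ezh1 from non-dividing ones.

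Promoter sequences are shown for 4 genes on which the results below turn, a demethylase and a methyltransferase of the polycomb mark that were higher in MCAO and 2 remodeller ATPases that were lower. Each run is RefSeq sequence of rat build GRCr8, read 5′ to 3′ on the gene's strand, from 250 bases before to 50 after the annotated start, 300 bases in all. Capitals mark matches to the motifs that were searched on both strands, which are given after the sequences. The windows are chr10:54640965-54641264 on the minus strand for Kdm6b, chr4:77687134-77687433 on the minus strand for Ezh2, chr1:233617121-233617420 on the plus strand for Smarca2 and chr10:54588761-54589060 on the minus strand for Chd3.
Kdm6b: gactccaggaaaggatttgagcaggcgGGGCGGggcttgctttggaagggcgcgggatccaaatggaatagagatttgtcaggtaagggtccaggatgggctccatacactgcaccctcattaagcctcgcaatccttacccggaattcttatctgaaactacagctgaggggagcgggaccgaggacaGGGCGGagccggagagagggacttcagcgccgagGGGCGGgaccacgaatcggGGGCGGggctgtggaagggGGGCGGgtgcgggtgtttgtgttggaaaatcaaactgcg
Ezh2: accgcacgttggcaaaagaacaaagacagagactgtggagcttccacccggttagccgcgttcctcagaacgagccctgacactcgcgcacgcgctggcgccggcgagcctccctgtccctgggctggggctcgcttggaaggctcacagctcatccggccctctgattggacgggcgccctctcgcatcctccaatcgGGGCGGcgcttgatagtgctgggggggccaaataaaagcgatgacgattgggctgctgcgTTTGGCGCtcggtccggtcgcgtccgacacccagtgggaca
Smarca2: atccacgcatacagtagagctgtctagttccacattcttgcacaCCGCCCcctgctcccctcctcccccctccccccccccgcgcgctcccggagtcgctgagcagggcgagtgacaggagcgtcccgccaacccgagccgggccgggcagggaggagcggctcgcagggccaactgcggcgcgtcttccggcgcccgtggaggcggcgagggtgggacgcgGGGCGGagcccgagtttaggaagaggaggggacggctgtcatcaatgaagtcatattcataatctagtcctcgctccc
Chd3: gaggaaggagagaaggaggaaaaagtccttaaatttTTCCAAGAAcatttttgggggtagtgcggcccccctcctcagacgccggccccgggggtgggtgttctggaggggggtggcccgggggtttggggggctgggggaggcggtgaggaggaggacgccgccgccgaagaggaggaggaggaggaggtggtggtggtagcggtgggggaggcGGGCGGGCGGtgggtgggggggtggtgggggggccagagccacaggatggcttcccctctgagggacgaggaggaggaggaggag

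The Kdm6b window held 19 CpG dinucleotides and 5 copies of the GC box GGGCGG, the letters bound by Sp1-type factors, with first bases at -223, -61, -27, -8 and 12 relative to the start. The Ezh2 window held 30 CpG, 1 GC box at -51 and, at 10, the E2F letters TTTGGCGC. E2F factors regulate genes of the cell cycle. In the Smarca2 window, with 29 CpG, a GC box lay at -28 and its complement CCGCCC at -206. The Chd3 window had 15 CpG, overlapping GC boxes at -35 and -31, and the STAT-type letters TTCCAAGAA at -214.

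A window was found for 82 of the 96 genes, and 11 of these had several, of which the first listed was used. Their median CpG count was 22.5 per window, against 12 over 19005 windows of protein-coding genes. GC boxes were present in 72.0% of the members' windows, and in 43.1% of those of protein-coding genes. Among members that were later called, 9 of 10 windows of genes higher in MCAO and 10 of 12 windows of genes lower in MCAO held a GC box, so this motif was common in both. The remaining motifs were E2F (TTTCCCGC or TTTGGCGC, in 6.1% of members' windows and 1.94% of protein-coding ones), the interferon and STAT element TTCNNNGAA (8.54% and 8.26%), the E-box CACGTG (6.1% and 7.27%), AP-1 (TGANTCA, 1.22% and 6.65%), the cyclic AMP element TGACGTCA (1.22% and 2.22%) and NF-kB (1.22% and 0.426%). GC-box and E2F matches can overlap where they share letters. These matches describe the letters of the windows only.

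Several facts of the whole table bear on the values. Of all probe sets other than controls, 62.5% were near-constant in the deposited values, with a standard deviation (SD) over the 12 arrays under 0.01 log2 units. Array medians lay between 7.23 and 7.28. The control rows of MCAO 6 were displaced by 12 positions, and 40 of 40 near-constant controls matched the other arrays (within 0.05) once moved back. Of 24 spike-in control probe sets, 6 varied, and these differed between MCAO and Sham by -0.13 to 0.26 log2 units, a range that covers many of the changes below. The difference between 3′ and 5′ signals of beta-actin, a measure of RNA degradation, was 1.36 ± 0.07 in MCAO and 1.43 ± 0.03 in Sham (SD, n = 7 and 5; exact two-sided permutation p = 0.0770). The part of either in the results was not tested.

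Marker mRNAs of several cell types also differed between the operations. Over all varying genes, 35.2% were called higher in MCAO and 34.2% lower, and the marker lists below are short. Of 10 varying markers of proliferating cells, 9 were higher in MCAO, and the array scores of that list (mean log2 difference from the Sham mean) were 0.08 to 0.94 in MCAO and -0.03 to 0.04 in Sham. Of 9 varying microglia and macrophage markers, 7 were higher and 2 lower, with scores of 0.22 to 0.77 in MCAO and -0.09 to 0.17 in Sham. Of the neutrophil and monocyte list, 5 of 12 genes were measured and 4 varied; these 4 were higher, with scores of 0.90 to 2.01 in MCAO and -0.11 to 0.09 in Sham, while Mpo and Elane, which define neutrophil granules, did not pass the filter. Neuronal markers, which all varied, had 6 of 12 lower and 0 higher, with scores of -0.45 to -0.09 in MCAO and -0.06 to 0.05 in Sham. Of 8 varying astrocyte markers, 5 were lower and 1, Gfap, was higher (log2 change 1.91 ± 0.12, SE; limma adjusted p = 5.2e-05). The MCAO scores of that list (-0.26 to 0.21) reached both below and above those of Sham (-0.03 to 0.05). Of 6 varying oligodendrocyte markers, 2 were lower, and the MCAO scores (-0.34 to 0.06) overlapped those of Sham (-0.16 to 0.11). Of 7 varying endothelial and pericyte markers, 4 were higher and 0 lower, and the MCAO scores (0.04 to 0.42) overlapped those of Sham (-0.18 to 0.08). The 2 varying erythroid markers passed in neither direction. T and B lymphocyte markers, 4 of 10 measured, were near-constant. In whole-hemisphere RNA, fewer cells of a type and less RNA per cell cannot be told apart, and the part of these marker differences in the changes of chromatin genes was not tested.

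The brightest probe set stood for each gene, and the fit ran over 12153 genes. Of the 96 members, 94 passed the filter on low values (above 6.61 on at least 5 arrays). Dnmt3b, a de novo DNA methyltransferase, and Arid3a did not. Of the 94, 42 varied between arrays and 52 were near-constant, so that 44.7% varied, against 52.2% of all tested genes. The near-constant members showed log2 changes of at most 0.0031 in size. Of them, 3 passed the test as higher (Chd1, Kat14 and Smarcc1) and 4 as lower (Arid3b, Kdm4c, Kdm8 and Setd6), where 8.07% of all near-constant genes were called higher and 9.0% lower. These calls are not described further. Counts below refer to varying genes, and since the SD was taken over all 12 arrays, a gene that differs between MCAO and Sham varies by that fact.

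Among the 42 varying members, 10 were higher in MCAO (23.8%), where 35.2% of all varying genes were, and 18 were lower (42.9%), where 34.2% of all varying genes were (limma with Benjamini-Hochberg adjustment over all genes, threshold 0.05). The other 14 passed in neither direction. The share called, 66.7%, was thus close to the background, and the changes were small. The median log2 change was 0.35 for the members that rose and -0.30 for those that fell, against 0.40 and -0.34 for all varying genes that rose or fell. No member reached a 2-fold difference in either direction, while 218 varying genes rose and 8 fell by at least that much. By at least 1.5-fold, 3 members rose (Kdm6b, Arid5a and Kmt5a) and 1 fell (Smarca2).

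Every MCAO array lay above every Sham array for 5 of the 42 (11.9%, against 17.9% of all varying genes), namely Kdm6b, Kmt5a, Ezh2, Arid5b and Brd2. Of these, Ezh2 passed the filter on low values only through its MCAO arrays. Every MCAO array lay below every Sham array for 7 (16.7%, against 16.2%), namely Smarca2, Hdac11, Sirt5, Chd3, Tet1, Ezh1 and Kmt5b. The other 30 overlapped between the groups. Of the 42 genes, 35 (83.3%) had the larger SD in MCAO, as did 89.4% of all varying genes.

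**Figure D1:**
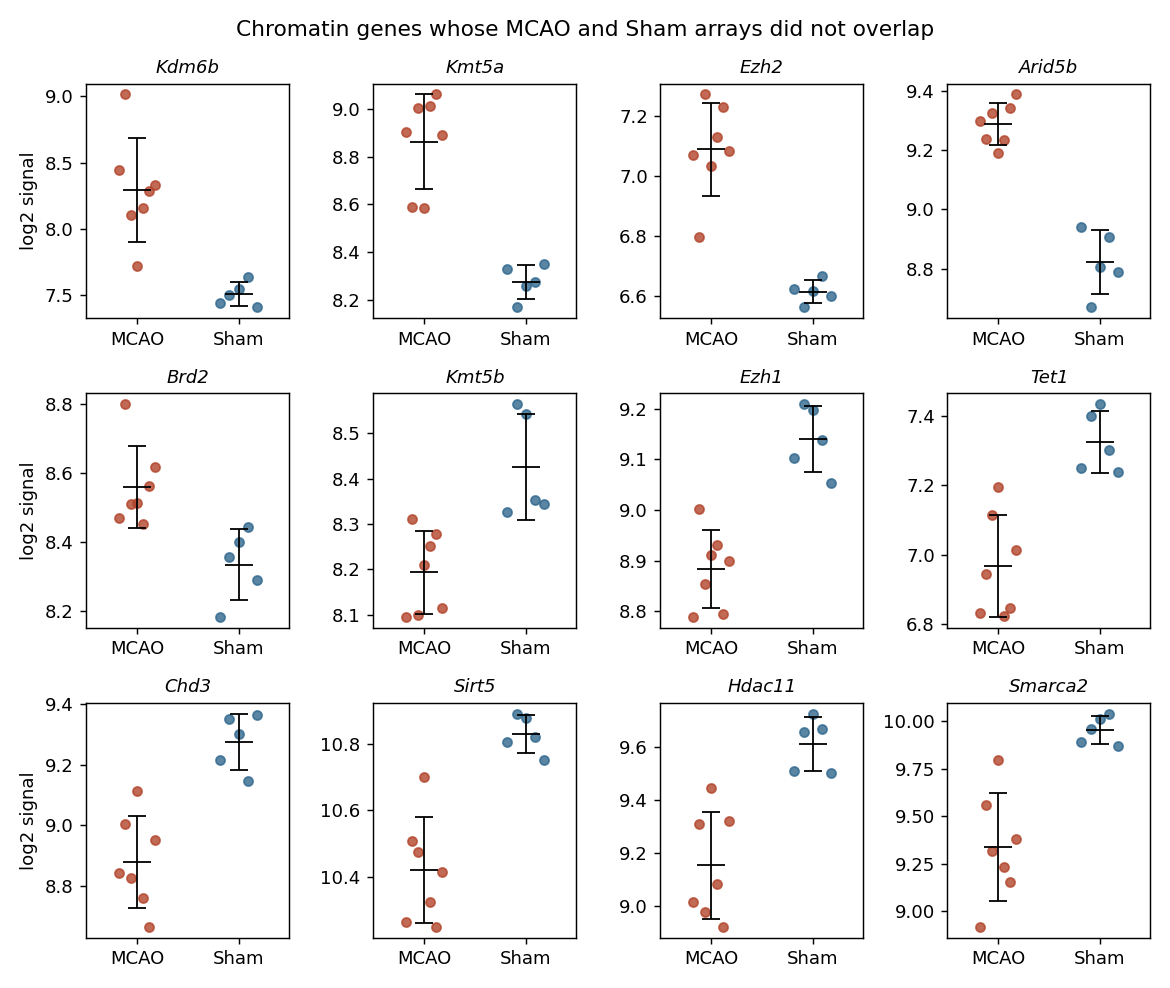
Log2 signal of the 12 varying members whose groups did not overlap, for each array (points) with the group mean and SD, MCAO (n = 7) left of Sham (n = 5). The 5 genes higher in MCAO and the 7 genes lower in MCAO show wider scatter in most MCAO groups than in Sham.

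**Figure D2:**
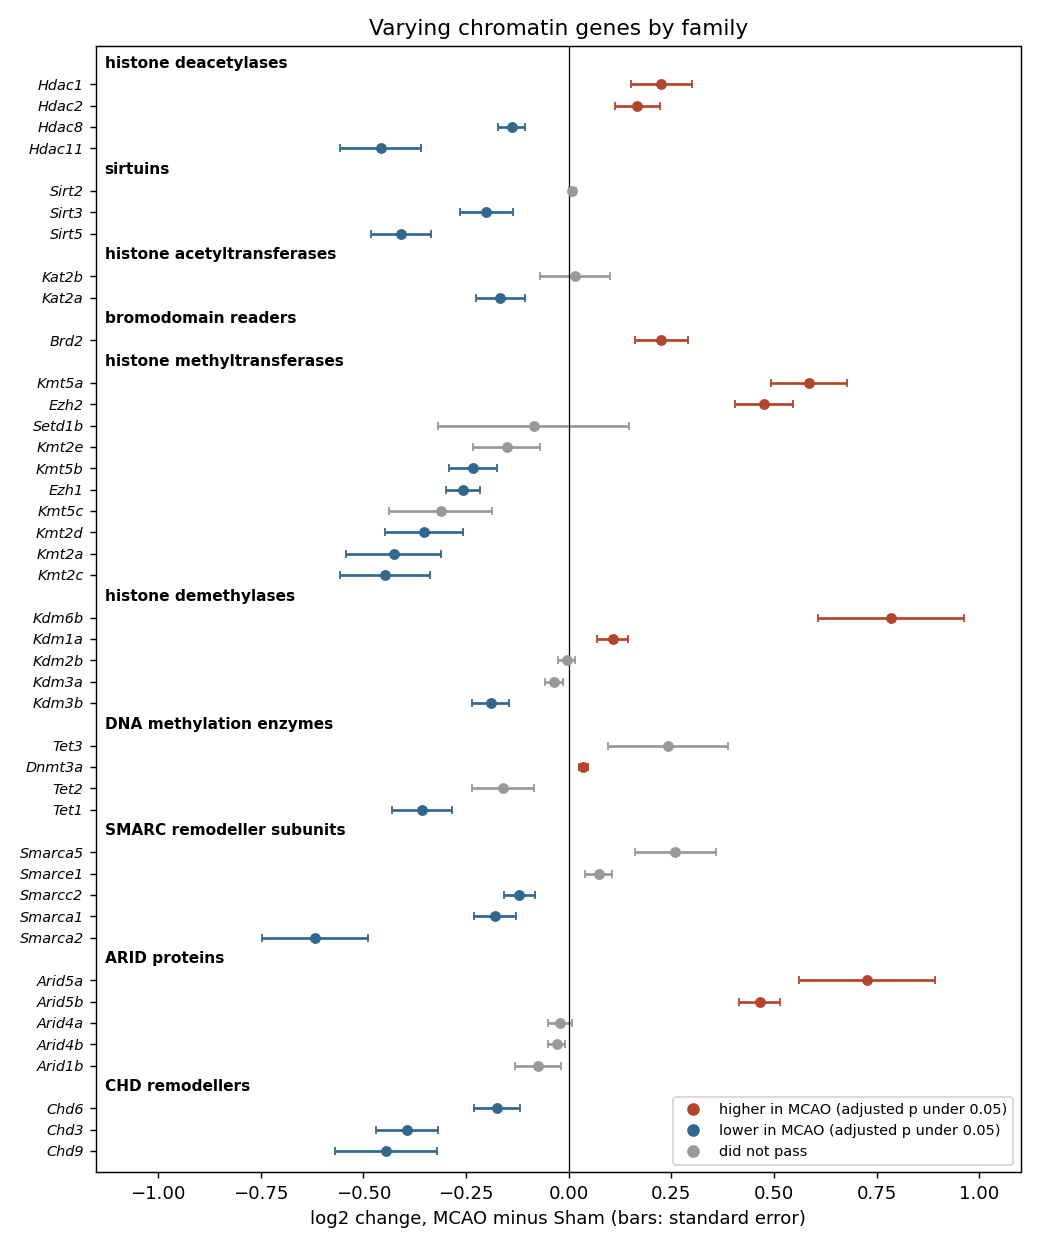
Log2 change, MCAO minus Sham, of each varying member by family, with SE bars. The 3 varying CHD members lay below 0, while deacetylases, methyltransferases, demethylases and DNA methylation enzymes had called members on both sides.

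Histone methyltransferases were the largest family, with 17 genes, of which 10 varied. Of these, 2 rose and 5 fell, and the family's median log2 change was -0.25. The counts in the single families, here and below, are small. They stand against 35.2% of all varying genes higher and 34.2% lower. Kmt5a (Entrez Gene 689820), which adds a single methyl group to histone H4 and acts in mitosis and DNA replication, ran from 8.58 to 9.06 in MCAO with a median of 8.90, against 8.33, 8.17, 8.26, 8.28 and 8.35 in Sham. Its mean was 8.86 ± 0.20 in MCAO and 8.28 ± 0.07 in Sham (SD, n = 7 and 5), a log2 change of 0.59 ± 0.09 (SE; limma adjusted p = 0.00164). The groups did not overlap. A further probe set carries Kmt5a together with the copy Kmt5al1 and was not used, and whether the Kmt5a probe set also detects that copy was not tested.

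The PRC2 paralogs moved in opposite directions. Ezh2 (Entrez Gene 312299) ran from 6.79 to 7.27 in MCAO with a median of 7.08, against 6.62, 6.56, 6.61, 6.67 and 6.60 in Sham. Its mean was 7.09 ± 0.16 in MCAO and 6.61 ± 0.04 in Sham, a log2 change of 0.48 ± 0.07 (SE; limma adjusted p = 0.00142). Ezh2 was close to the floor of the filter, 6.61, the 25th percentile of the deposited values. It lay above this floor on all 7 MCAO arrays and on 3 of 5 Sham arrays, the only varying member not above it everywhere. The filter needs 5 arrays, so this probe set entered the test only through the MCAO arrays, where it was high. Its call and its separate groups are therefore a description. A second Ezh2 probe set, also with separate groups, averaged 6.90 ± 0.12 in MCAO and 6.64 ± 0.01 in Sham (0.26 ± 0.05, SE; limma adjusted p over probe sets = 0.00452).

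Ezh1 (Entrez Gene 303547) ran from 8.79 to 9.003 in MCAO with a median of 8.90, against 9.10, 9.21, 9.20, 9.14 and 9.05 in Sham. Its mean was 8.88 ± 0.08 in MCAO and 9.14 ± 0.07 in Sham, a log2 change of -0.26 ± 0.04 (SE; limma adjusted p = 0.00175). Within each array, Ezh2 minus Ezh1 was -1.80 ± 0.22 in MCAO and -2.53 ± 0.08 in Sham, a difference of 0.73 (exact two-sided permutation test over the 12 arrays, p = 0.00126, the smallest this design allows; 0.0101 adjusted over 8 pairs). Every MCAO array had the higher ratio. Both genes already had separate groups, in opposite directions. The separation of their difference and its p-value followed from that and are no further evidence. The shift in Ezh2 minus Ezh1 includes the Ezh2 signal at the floor, below 6.61 on 2 of 5 Sham arrays (6.56 and 6.60). How well so low a level is measured was not tested. The proliferation scores given above were also higher in MCAO, from 0.08 to 0.94 against -0.03 to 0.04 in Sham. From MCAO 1 to MCAO 7 they were 0.70, 0.08, 0.94, 0.72, 0.82, 0.89 and 0.54. On the same arrays Ezh2 was 7.07, 6.79, 7.27, 7.03, 7.13, 7.23 and 7.08. MCAO 2 was lowest and MCAO 3 highest for both. The part of the proliferation markers in the Ezh2 rise was not tested.

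Of the MLL family, 3 members fell together. Kmt2c, a methyltransferase of enhancers, changed by -0.45 ± 0.11 (SE; adjusted p = 0.00904), Kmt2a, which marks promoters, by -0.43 ± 0.12 (adjusted p = 0.0135) and Kmt2d, the partner paralog of Kmt2c, by -0.35 ± 0.09 (adjusted p = 0.0132). In each of the 3 genes at least 1 MCAO array lay inside the Sham range. A dimmer varying probe set of Kmt2c gave -0.24 ± 0.13 (SE), which did not pass (limma adjusted p over probe sets = 0.158). Kmt2e, a catalytically inactive member, and Setd1b, the catalytic subunit of another promoter methyltransferase, had changes of -0.15 and -0.09 that did not pass with their brightest probe sets. Of 2 dimmer varying probe sets of Kmt2e, both were lower in MCAO, at -0.32 ± 0.07 and -0.15 ± 0.05 (SE; limma adjusted p over probe sets = 0.00821 and 0.0303). Kmt5b, which extends the mark begun by Kmt5a, fell by 0.23 on the log2 scale (adjusted p = 0.00997) with separate groups, while its paralog Kmt5c had -0.31 (adjusted p = 0.0658). The 7 near-constant genes of the family were Kmt2b, Setd1a, Setd2, Setd3, Setd4, Setd5 and Setd6.

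Of 14 histone demethylases, 5 varied, with 2 higher and 1 lower. Kdm6b (JMJD3, Entrez Gene 363630) removes the methyl mark that PRC2 writes and is known in mouse macrophages as a gene induced by inflammatory stimuli. It ran from 7.72 to 9.01 in MCAO with a median of 8.28, against 7.44, 7.50, 7.55, 7.64 and 7.41 in Sham. The lowest MCAO array, MCAO 4, was just above the highest Sham array, and MCAO 2 stood highest. The mean was 8.29 ± 0.39 in MCAO and 7.51 ± 0.09 in Sham, a 1.72-fold difference and the largest rise among the members (log2 change 0.79 ± 0.18, SE; limma adjusted p = 0.00617). Microglia and macrophage scores (0.22 to 0.77 in MCAO, -0.09 to 0.17 in Sham) were also higher in MCAO. From MCAO 1 to MCAO 7 they were 0.64, 0.22, 0.69, 0.67, 0.62, 0.77 and 0.58. MCAO 2, highest for Kdm6b, thus had the lowest MCAO score, and MCAO 4, lowest for Kdm6b, had 0.67. The part of these markers was not tested.

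By their brightest probe sets, the other demethylases that changed did so little, while dimmer probe sets of Kdm5a and Kdm5b, described further on, changed by more. Kdm1a (LSD1), a flavin-dependent demethylase of corepressor complexes, changed by 0.11 ± 0.04 (SE; adjusted p = 0.0416, and 0.0650 with equal array medians), and Kdm3b, which removes a repressive methyl mark, by -0.19 ± 0.05 (adjusted p = 0.00758). Kdm2b, a polycomb-linked demethylase, and Kdm3a had changes of -0.0052 and -0.04 that did not pass. Within arrays, Kdm6b minus Kdm1a was -0.81 ± 0.33 in MCAO and -1.48 ± 0.08 in Sham (exact permutation p = 0.00253, 0.0101 adjusted over 8 pairs). Kdm6b already had separate groups and Kdm1a changed little. The shift therefore largely restates the Kdm6b rise and is no further evidence.

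Of 10 histone deacetylases, 4 varied and passed, 2 in each direction. Hdac1 and Hdac2, the class I catalytic subunits of the NuRD, Sin3 and CoREST corepressors, changed by 0.23 ± 0.07 (SE; adjusted p = 0.0306) and 0.17 ± 0.05 (adjusted p = 0.0294). Both overlapped between the groups. Their within-array difference did not pass the test: Hdac1 minus Hdac2 was -2.33 ± 0.14 in MCAO and -2.39 ± 0.05 in Sham (exact permutation p = 0.410, also after adjustment).

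Hdac11, the class IV deacetylase and an enzyme enriched in brain, ran from 8.92 to 9.45 in MCAO with a median of 9.08, against 9.51, 9.66, 9.73, 9.67 and 9.50 in Sham. Its mean was 9.15 ± 0.20 in MCAO and 9.61 ± 0.10 in Sham, a log2 change of -0.46 ± 0.10 (SE; limma adjusted p = 0.00474), with separate groups. Hdac8, a further class I enzyme, fell by 0.14 on the log2 scale (adjusted p = 0.00783). Hdac3 of class I was near-constant, as were the class II genes Hdac4, Hdac5, Hdac6, Hdac7 and Hdac10.

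Sirtuins are NAD-dependent deacylases. Of 6 genes, 3 varied, and those for the mitochondrial enzymes Sirt5 and Sirt3 fell. Sirt5 (Entrez Gene 306840), which removes succinyl and malonyl groups, ran from 10.25 to 10.70 in MCAO with a median of 10.41, against 10.80, 10.89, 10.88, 10.82 and 10.75 in Sham. The groups did not overlap, and the log2 change was -0.41 ± 0.07 (SE; limma adjusted p = 0.00253). Sirt3, the main mitochondrial deacetylase, changed by -0.20 (adjusted p = 0.0276). Sirt2, a tubulin deacetylase abundant in oligodendrocytes, had a change of 0.01 (adjusted p = 0.459). Sirt4, Sirt6 and Sirt7 were near-constant.

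The acetyltransferases Kat2a and Kat2b are alternative subunits of the SAGA and PCAF coactivators. Kat2a fell by 0.17 on the log2 scale (SE 0.06; adjusted p = 0.0417), and Kat2b had a change of 0.02 ± 0.09 (adjusted p = 0.913). Kat2a minus Kat2b was -0.69 ± 0.10 in MCAO and -0.50 ± 0.10 in Sham (exact permutation p = 0.0139, 0.0222 adjusted over 8 pairs). Kat14, Kat5, Kat6a, Kat6b and Kat7 were near-constant.

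Of 6 bromodomain genes, Brd2 varied. Its protein, of the BET family, binds acetylated histones and recruits the transcription machinery. Brd2 ran from 8.45 to 8.80 in MCAO with a median of 8.51, against 8.18, 8.36, 8.40, 8.44 and 8.29 in Sham. The groups were narrowly separated, and the log2 change was 0.23 ± 0.06 (SE; limma adjusted p = 0.0176).

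Among 9 ARID genes, whose proteins share a DNA-binding domain, 5 varied, with 2 higher and 0 lower. Arid5a, which in mouse macrophages stabilises the interleukin-6 transcript, ran from 6.97 to 7.98 in MCAO with a median of 7.68, against 6.64, 6.87, 6.96, 6.91 and 6.97 in Sham. All but MCAO 4 stood above the Sham arrays, and the mean was 1.65-fold higher in MCAO (log2 change 0.73 ± 0.17, SE; limma adjusted p = 0.00632). Arid5b, the cofactor of a lysine demethylase, had the largest limma statistic among the rises. It ran from 9.19 to 9.39 in MCAO with a median of 9.30, against 8.94, 8.67, 8.81, 8.91 and 8.79 in Sham, a log2 change of 0.47 ± 0.05 (SE; limma adjusted p = 0.000395) with separate groups. The SWI/SNF subunit Arid1b and the Sin3-linked Arid4a and Arid4b had changes of -0.07, -0.02 and -0.03 that did not pass.

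With the brightest probe sets, remodeller genes of the SMARC family fell or did not pass. Of 13 genes, 5 varied, and 3 fell with a family median of -0.12. Smarca2 (BRM, Entrez Gene 361745), 1 of the 2 alternative ATPases of SWI/SNF complexes, had the largest fall of any member. It ran from 8.92 to 9.79 in MCAO with a median of 9.32, against 9.89, 9.96, 10.01, 10.04 and 9.87 in Sham. MCAO 1 was lowest, and MCAO 4 was nearest to Sham without reaching it. The mean was 9.34 ± 0.28 in MCAO and 9.95 ± 0.07 in Sham, a log2 change of -0.62 ± 0.13 (SE; limma adjusted p = 0.00443). Other Smarca2 probe sets gave -0.11 and -0.22, which did not pass over probe sets (adjusted p = 0.575 and 0.0569).

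Of the ISWI ATPases, Smarca1 fell by 0.18 on the log2 scale (adjusted p = 0.0179), and Smarca5 had a change of 0.26 ± 0.10 that did not pass (adjusted p = 0.0547). Smarcc2, a scaffold of SWI/SNF, fell by 0.12 (adjusted p = 0.0249), and its dimmer varying probe sets gave -0.26 (adjusted p over probe sets = 0.0302) and 0.14 (0.0757). Smarce1, another SWI/SNF subunit, had 0.07 (adjusted p = 0.0974) with its brightest probe set. The near-constant members were Smarca4, Smarcad1, Smarcal1, Smarcb1, Smarcc1, Smarcd1, Smarcd2 and Smarcd3.

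The 3 CHD genes that varied by their brightest probe set fell, with a median of -0.39, while dimmer probe sets of Chd1, Chd2, Chd4 and Chd7, described further on, were higher in MCAO. Chd3 (Entrez Gene 303241), an ATPase of the NuRD complex, ran from 8.67 to 9.11 in MCAO with a median of 8.84, against 9.22, 9.35, 9.30, 9.15 and 9.36 in Sham. The groups did not overlap, and the log2 change was -0.39 ± 0.08 (SE; limma adjusted p = 0.00311). Chd9 changed by -0.44 ± 0.12 (adjusted p = 0.0154) and Chd6 by -0.17 ± 0.06 (adjusted p = 0.0291). The neuronal scores, -0.45 to -0.09 in MCAO and -0.06 to 0.05 in Sham, moved in the same direction as the genes that fell, and their part was not tested.

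Of 6 DNA methylation genes, 4 varied. Tet1, 1 of 3 dioxygenases that oxidise methylated cytosine, ran from 6.82 to 7.19 in MCAO with a median of 6.95, against 7.25, 7.40, 7.43, 7.30 and 7.24 in Sham. The groups did not overlap, and the log2 change was -0.36 ± 0.07 (SE; limma adjusted p = 0.00404). Tet2 and Tet3 had changes of -0.16 and 0.24 that did not pass (adjusted p = 0.116 and 0.213). Dnmt3a, a de novo methyltransferase, passed the test at 0.04 ± 0.01 (adjusted p = 0.0151), and this call was lost on rescaling the arrays (0.01, adjusted p = 0.560 after quantile normalization). Dnmt1, the maintenance enzyme, was near-constant.

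Tet paralogs shifted relative to each other. Tet1 minus Tet3 was -0.99 ± 0.40 in MCAO and -0.39 ± 0.07 in Sham (exact permutation p = 0.0126, 0.0222 adjusted over 8 pairs), and Tet2 minus Tet3 was 0.01 ± 0.21 in MCAO and 0.41 ± 0.06 in Sham (exact permutation p = 0.00505, adjusted 0.0135). In all, 20 pairs of related genes were fixed, 8 had both genes varying, and 5 of the 8 passed. Among the 5 were Ezh2 minus Ezh1, whose result followed from the single genes, and Kdm6b minus Kdm1a. The latter are not paralogs, and their shift largely restates the Kdm6b rise. A ratio between 2 probe sets includes their different affinities, so only its shift between the groups is informative. Arid5a minus Arid5b and Kmt2a minus Kmt2d did not pass (adjusted p = 0.200 and 0.387).

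Choice of probe set mattered for these genes. Of the members that were near-constant by their brightest probe set, 10 had another probe set that varied, 13 probe sets in all, and these genes are named because they met that criterion, after their values were seen. With every probe set on its own row, 9 of the 10 had a probe set higher in MCAO and 1, the demethylase gene Kdm5b, had one lower (-0.33 ± 0.11, SE; limma adjusted p = 0.0369). Over all 68 varying member probe sets, 36.8% were higher and 32.4% lower, where 37.0% and 30.7% of all varying probe sets were. At this level rises were as frequent as in the background and not outnumbered by falls, unlike with the brightest probe sets.

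Smarca4 (BRG1), the SWI/SNF ATPase that alternates with Smarca2, was among them. One varying probe set ran from 8.52 to 9.02 in MCAO with a median of 8.90, against 8.48, 8.35, 8.48, 8.39 and 8.33 in Sham. Its log2 change was 0.47 ± 0.08 (SE; limma adjusted p = 0.00236) with separate groups, while a brighter Smarca4 probe set was near-constant. Chd4, the NuRD ATPase that alternates with Chd3, had 2 such probe sets, at 0.65 ± 0.16 and 0.50 ± 0.15 (adjusted p = 0.0107 and 0.0206).

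With each gene's brightest varying probe set, a choice made after the data were seen, Smarca4 minus Smarca2 was -0.46 ± 0.40 in MCAO and -1.55 ± 0.09 in Sham. Chd4 minus Chd3 was -0.52 ± 0.39 in MCAO and -1.42 ± 0.15 in Sham. A difference between MCAO and Sham itself makes a probe set vary, so this choice favours a shift. Smarca4 and Smarca2 also had separate groups in opposite directions, which fixed the separation of their difference. Both shifts are a description and carry no test. The Smarca4 and Chd4 probe sets used here were dimmer than a near-constant one of the same gene.

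**Figure D3:**
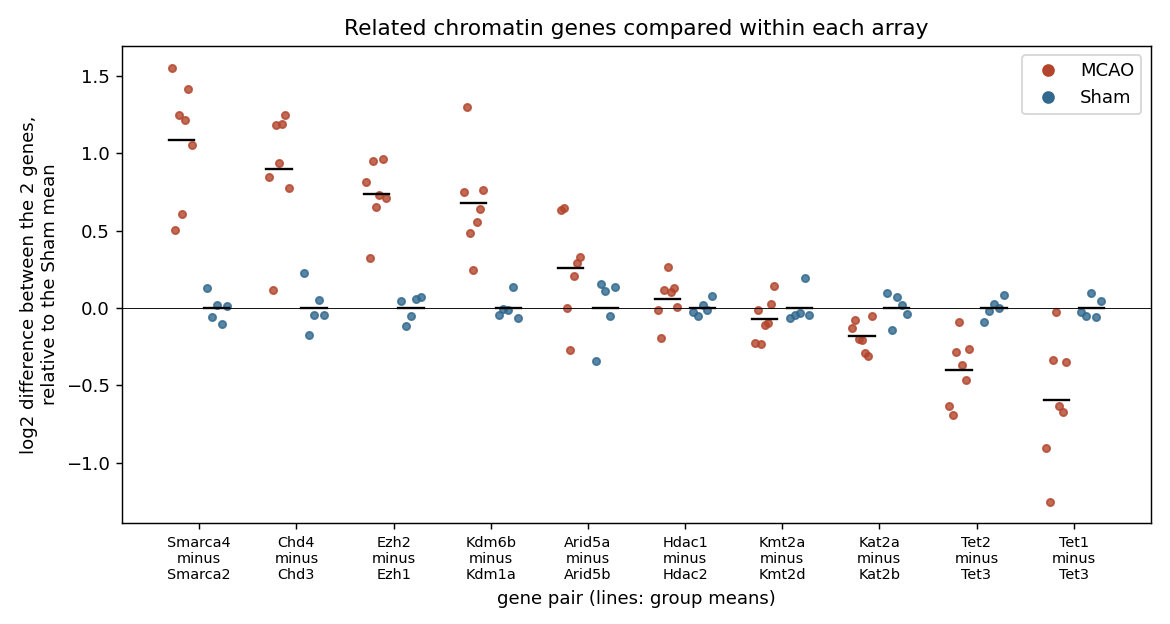
Within-array log2 difference between 2 related genes, relative to its Sham mean, for each array (points) with group means (lines), MCAO left of Sham; Smarca4 and Chd4 are shown with their brightest varying probe set. Ezh2 minus Ezh1 is higher on every MCAO array than on any Sham array, and 1 MCAO array lies within the Sham range for Chd4 minus Chd3.

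Of the others, the demethylase Kdm5a, which erases an activating methyl mark, had 0.68 ± 0.13 and 0.43 ± 0.09 (adjusted p = 0.00398 and 0.00413). Chd7, a remodeller of neural crest and progenitor cells, had 0.43 ± 0.09 (0.00545), Chd1 0.39 ± 0.05 (0.00101), Kat14 0.31 ± 0.06 (0.00402), Setd5 0.22 ± 0.07 (0.0232) and Chd2 0.21 ± 0.06 (0.0141), each as log2 change, SE and adjusted p. The acetyltransferase Kat6a gave 0.45 ± 0.09 (0.00428) with 1 probe set and 0.01 ± 0.19 (0.972) with another.

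Of the 12 members with 2 or more varying probe sets, 0 had calls in both directions, and 3 (Chd4, Ezh2 and Kdm5a) had all of them called the same way. Tet3, whose brightest probe set did not pass, had another at 7.61 ± 0.16 in MCAO and 6.97 ± 0.08 in Sham with separate groups (0.64 ± 0.08, SE; adjusted p = 0.000846). Smarce1 had 2 dimmer probe sets with separate groups, at 0.26 and 0.37 (adjusted p = 0.00466 and 0.00909). For 42 tested members no varying probe set was found, so their response was not measurable with these values.

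When near-constant probe sets were left out before choosing one for each gene, 52 members were tested: 17 were higher (32.7%, where 38.1% of all such genes were) and 20 lower (38.5%, where 35.1% were). Of the calls given above, 8 of 10 rises (not Dnmt3a and Kdm1a) and 18 of 18 falls were kept. Rises thus made up 35.7% of calls with the brightest probe set and 45.9% here.

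**Figure D4:**
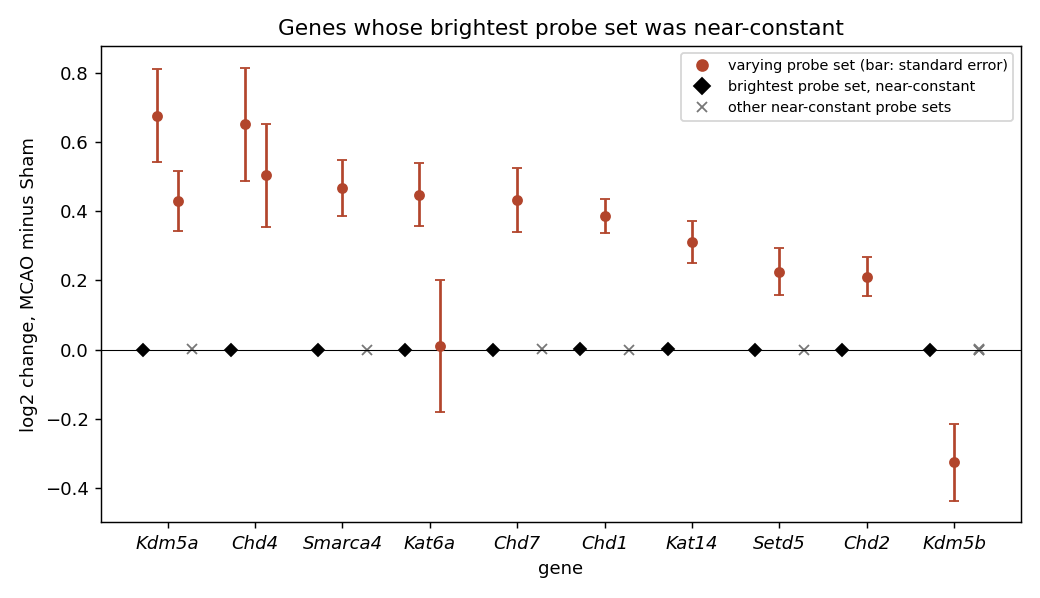
Log2 change, MCAO minus Sham, of each probe set of the 10 members whose brightest probe set was near-constant; circles with SE bars are varying probe sets, diamonds the brightest and crosses the other near-constant ones. Varying probe sets of 9 genes lie above 0, with 1 of Kat6a at 0.01, that of Kdm5b lies at -0.33, and the near-constant ones lie at 0.

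The arrays differed in how far they departed from Sham. For the 10 members called higher, the mean difference from the Sham mean was 0.18 in MCAO 4 and 0.36 to 0.45 in the other MCAO arrays. For the 18 called lower it was -0.15 in MCAO 4, -0.19 in MCAO 2 and -0.30 to -0.45 in the rest. In MCAO 4, 3 of the 10 and 5 of the 18 lay inside the Sham range, and in MCAO 2, 1 and 7 did. MCAO 2 was thus close to Sham for the falls and not for the rises. Values chosen by the call are a description and carry no test.

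**Figure D5:**
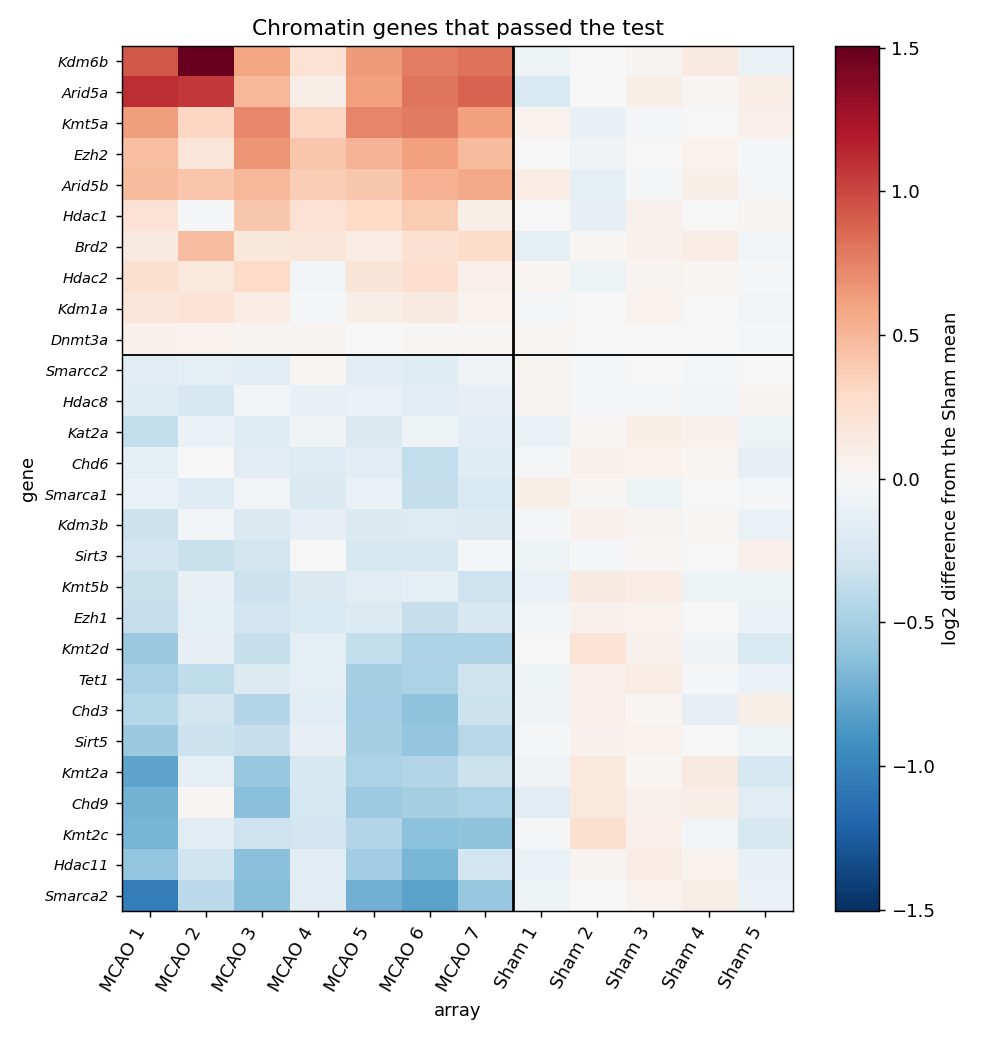
Colour gives the log2 difference from the Sham mean for each called member (rows, 10 higher above the line and 18 lower below it) on each array (columns, 7 MCAO arrays left of 5 Sham arrays). MCAO 4 is paler than the other MCAO arrays for most rises, and MCAO 2 and MCAO 4 are pale for many falls.

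Most calls did not depend on 1 rat. Of 28 called members, 21 kept an adjusted p under 0.05 without any single array, 7 of the 10 higher and 14 of the 18 lower. The exceptions were Hdac1, Hdac2, Kdm1a, Kat2a, Sirt3, Chd6 and Smarcc2. Hdac1 was lost without 7 of the 12 arrays in turn (adjusted p up to 0.0806), Hdac2 without 6 (up to 0.0763), Kdm1a without 9 (up to 0.0877), Kat2a without 6 (up to 0.105) and Sirt3 without 8 (up to 0.0634). Chd6 was lost without Sham 2, Sham 3 or Sham 4 (up to 0.0742), and Smarcc2 without Sham 1 or Sham 3 (up to 0.0574). Smarca5, not called with all arrays in the main fit, passed without MCAO 4 (adjusted p = 0.00813) and without Sham 1 (0.0479). With all 12 arrays it was called higher when near-constant probe sets were left out (0.26, limma adjusted p = 0.0261).

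Further chromatin genes were taken from 5 lists of partners and related enzymes, 126 genes of which 112 were measured and 53 varied. Of these 53, 25 were higher in MCAO (47.2%, where 35.2% of all varying genes were) and 14 lower (26.4%, where 34.2% were), with a median log2 change of 0.12, against 0.03 over all varying genes. The lists were chosen with earlier results of these data known, so these shares are a description and carry no test. The counts in the single lists are small and stand against the same background shares. In the list of remodellers, histone chaperones and SWI/SNF partners, 8 of 14 were higher and 4 lower (median 0.28). Baz1a, the ISWI partner of Smarca5, averaged 7.63 ± 0.32 in MCAO and 6.68 ± 0.06 in Sham (0.95 ± 0.14, SE; limma adjusted p = 0.00146), and Bcl7a, a SWI/SNF subunit, changed by -0.51 ± 0.08 (adjusted p = 0.00165).

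Of 14 varying polycomb and heterochromatin genes, 6 were higher and 3 lower (median 0.12), led by Phc2 of the PRC1 complex at 0.49 ± 0.05 (adjusted p = 0.000243) and Cbx6 at -0.44 ± 0.08 (adjusted p = 0.00216). Of 11 acetyltransferase, corepressor and reader genes, 4 were higher, such as the NuRD subunit Gatad2a (0.39), and 4 lower, such as the nuclear receptor corepressor Ncor1 (-0.42), with a median of -0.08. Of 9 other methyltransferase genes, 4 were higher, such as the arginine methyltransferase Prmt3 (0.27), and 3 lower, such as Ash1l (-0.26), with a median of 0.02. Of 5 other demethylase and oxygenase genes, 3 were higher, such as Alkbh1 (0.43), and 0 lower, Jmjd1c having a change of -0.06 that did not pass.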

How the data were processed

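Per the labels' protocols, total RNA was extracted with TRIzol, cleaned on an RNeasy column, and 100 ng gave biotin-labelled cRNA for rat Affymetrix-style arrays. The deposited table holds the authors' values for 31099 probe sets, used here as log2 values as judged from their range. For the log base, the summarization and the normalization, no source used here gives the method. Array number limits the precision.

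Probe sets with 1 gene and above 6.61 (25th percentile) on at least 5 arrays were tested, 1 per gene (highest mean), over 12153 genes with limma 3.58.1 in R 4.3.3 (lmFit, eBayes with trend), two-sided, with Benjamini-Hochberg adjustment. Errors of log2 changes are standard errors (SE). The code was tested on simulated data. Controls were left out.

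The members and lists were chosen with earlier results of these data known. Named were the 10 largest called rises and falls and each family's and list's strongest statistic in each direction; other genes are named to account for all members. Each sample is a separate rat. Alternatives were 3 scalings, 2 filters, other probe set rules, variance models, an exact rank-sum test, a replicate block and leaving out each array. Deviations of same-numbered rats correlated over 0.1 in 3 of 5 pairs and not in the others, so the numbers, which no label ties to a shared litter or day, were not treated as pairs. Promoter windows are RefSeq's.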

Additional observations from a re-analysis of the deposited data

Results flagged for a closer look

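Of 68 groups of values looked at (named members and differences between related genes, in MCAO and in Sham), 2 held an array far from the others of its group. This was judged by its gap to the nearest array as a share of the group's range, and chance alone gives about 1 in 20 such groups. In Sham 4, Kmt2a minus Kmt2d was -0.43, and the nearest Sham array had -0.66. In the same array Kdm6b minus Kdm1a was -1.35, with the nearest Sham array at -1.49.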

How the results depend on the processing

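Against 10 members higher and 18 lower, 17 were higher with near-constant probe sets left out, 20 with the most variable probe set, 20 with the mean of probe sets, and 21 with any probe set called. With the replicate number as a block 5 were higher and 10 lower, and of the other chromatin genes 15 higher and 9 lower. In that fit an MCAO rat whose number no Sham rat shares adds nothing to the difference. Fewer arrays then carry it, which by itself makes a call harder to reach. Among named members the block ended the calls of Kdm6b, the largest rise (0.78, limma adjusted p = 0.0696), Arid5a (0.0884), Brd2 (0.0757), Hdac2 (0.0968), Kdm1a (0.120), Kmt2d (0.0645) and Chd3 (0.0505). Same-numbered rats correlated at -0.335 to 0.536, and 3 of 5 matched best, a hint from the data and not the design. Leaving out each array gave 7 to 11 members higher and 14 to 21 lower, and 18 to 27 other chromatin genes higher and 10 to 18 lower. With the mean of probe sets, Hdac1 minus Hdac2 turned to -0.054, Kmt2a minus Kmt2d to 0.034 and Arid5a minus Arid5b to -0.10. Arid5a minus Arid5b was 0.17 to 0.35 without each array and passed without MCAO 4. Kat2b turned to -0.0073 with array weights, -0.0029 under the block and as low as -0.035 without 1 array (highest 0.058), and Sirt2 to -0.0044 with equal medians. The cause was not tested. Of 700 values of named members under alternatives, 643 kept their call and direction. Signal near the floor limits Ezh2.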
